A study of Homo sapiens with 3 samples.

Results

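The genes described here are 50 genes of the G2 phase and mitosis, chosen by their function as the rows of the deposited expression table that carry 1 of 50 listed gene symbols. All 50 were found among the 31907 rows of the table. All groups are cells labelled NCI-N87, a long-established line from a human stomach cancer, transfected with Lipofectamine 2000. The control, with the genotype given as WT, received a scrambled siRNA and is 1 library. The knockdown group received siRNAs against FOXP4, a forkhead transcription factor, and is 2 libraries, 1 with siRNA1 and 1 with siRNA2. The siRNAs are different reagents, and separate cultures are not named, so each value below is 1 library and the spread behind a p-value may be technical. Levels are in TPM, a share of all transcripts that allows for gene length, so that levels of different genes can be compared. Differences are log2 folds of TPM + 1 against the scrambled library. Where 3 levels of a gene follow each other, their order is scrambled siRNA, siRNA1, siRNA2.

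A cell that enters mitosis activates CDK1 with its B cyclins, condenses its chromosomes, builds a bipolar spindle, waits until every kinetochore is attached, then splits its sister chromatids and cuts itself in 2 daughters. The transcripts for this machinery are held low in resting and early cycling cells by the DREAM complex. They are switched on from late S phase to G2 by B-MYB and FOXM1, which act with the MuvB core at a promoter element called the cell cycle genes homology region (CHR), often with CCAAT boxes bound by NF-Y nearby. The level of these mRNAs in a bulk culture is widely read as a measure of proliferation, and fewer dividing cells and less mRNA per dividing cell cannot be told apart in such libraries.

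The libraries had about 18000000, 18200000 and 18700000 estimated reads for the scrambled siRNA, siRNA1 and siRNA2. As a check of the labels, FOXP4 (control 93.9 TPM) was at 51.6 TPM after siRNA1, which is 55.0% of the control, and at 36.7 TPM after siRNA2, which is 39.0%. YAP1, which the series title also names, stood at 29.9% of the scrambled level after siRNA1 and at 116% after siRNA2. The siRNA2 library stood apart in its mitochondrially encoded mRNAs, which took 1.41% of TPM against 5.15% in the control and 8.05% with siRNA1, and in the median fold of all 14429 genes tested, -0.24 against 0.03 with siRNA1. The siRNA1 library stood apart in base composition: across 12335 genes its folds had a Spearman correlation of -0.61 with the GC content of the transcript, against -0.10 with siRNA2. FOXP4 is GC-rich (62.9%), and its log2 folds were -0.85 with siRNA1 and -1.33 with siRNA2. With the GC trend removed, as described below, they were -0.20 and -1.02, so the siRNA1 check is weak on that scale. The 3 immune and 2 endothelial markers found in the table stayed under 1 TPM, as did 3 of the 4 fibroblast markers (COL1A2 and DCN at 0), with COL1A1 at 6.42 to 22.3 TPM. Of 8 epithelial markers EPCAM, KRT8, KRT18, KRT19 and CLDN4 were abundant, KRT7 was under 1 TPM and CDH1 was at 4.16 to 11.6 TPM. ERBB2, which is amplified in NCI-N87, measured 58.9 to 89.8 TPM and ranked 2136 among all rows in the control, and the identity of the line was not tested further.

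Mitotic genes measured lower with siRNA2 than in the control almost without exception, while with siRNA1 they went both ways. The 50 genes together made up 0.625% of all TPM in the scrambled library, and this share was 0.545% after siRNA1 and 0.326% after siRNA2. Their summed levels were thus 87.2% and 52.2% of the control sum. With siRNA2, 48 of 50 were below the control (65.0% of all genes tested were) and 23 were at least 2-fold lower (13.2% of all genes). With siRNA1, 29 were below the control (47.9% of all genes) and 4 were at least 2-fold lower (6.0% of all genes). At least 2-fold higher were 0 of 50 with siRNA1 (5.27% of all genes) and 0 of 50 with siRNA2 (6.88%). Median-of-ratios scaling moved the siRNA2 median of all genes from -0.24 to 0.01. Under it 46 of 50 were still below the control with siRNA2 (49.3% of all genes), and 16 were at least 2-fold lower (8.05%). The median log2 fold of the 50 was -0.12 with siRNA1 and -0.97 with siRNA2, beside medians of 0.03 and -0.24 over all genes tested. In total 28 were below the control with both siRNAs (38.1% of all genes), 20 were above it with siRNA1 and below it with siRNA2 (26.9% of all genes), CDC25B was the reverse, and SMC4 was above it with both.

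No mitotic gene passed the group test. In limma, with the 2 knockdown libraries against 1 control and Benjamini-Hochberg adjustment over 14429 genes, 0 of 50 were called (0.00% of all genes), and 3 of 50, KIF20A, INCENP and PLK1, had an unadjusted p under 0.05 (2.97% of all genes). The fit has 1 residual degree of freedom, which is the gap between the knockdown libraries. Limited to genes averaging 10 TPM or more, limma called KIF20A (adjusted p = 0.00169), 1 of 9 lower genes among 9129 (0.0986% of genes), but that fit took every variance from a common trend and ignored how far the siRNAs differed at each gene. Counts of size below therefore describe these libraries.

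**Figure D1:**
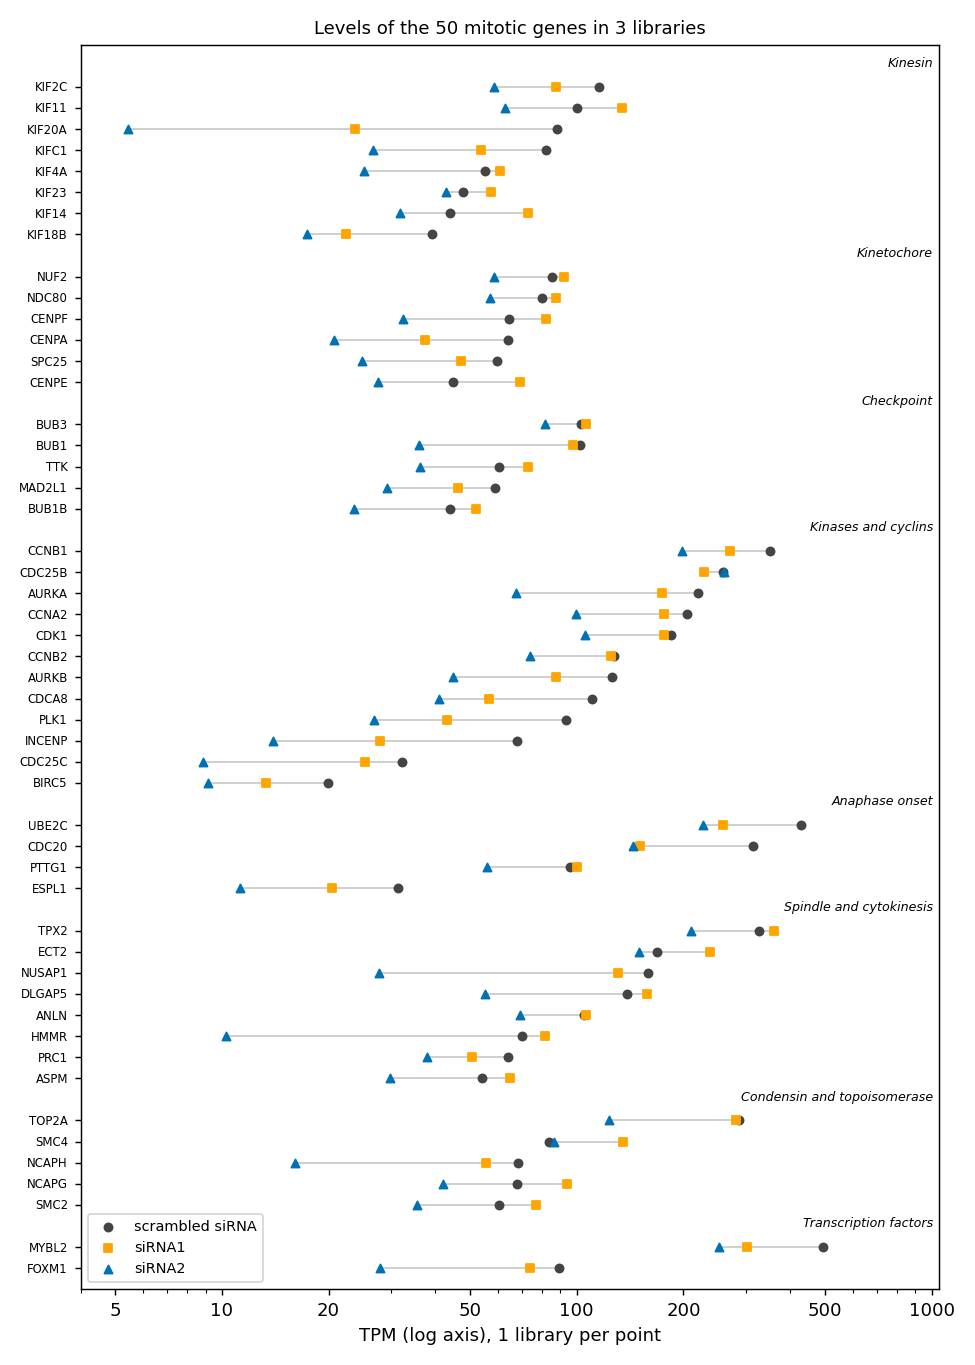
TPM (log axis) of each of the 50 mitotic genes in the 3 libraries, grouped by function and sorted by the control level, with 1 point per library and a grey line from the lowest to the highest value. The siRNA2 triangle is the lowest of the 3 points in 48 genes, and the siRNA1 square lies on either side of the control circle.

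Only 4 of the 50 were at least 2-fold lower with both siRNAs (2.38% of all genes tested), KIF20A, INCENP, PLK1 and CDC20, and 0 were at least 2-fold higher with both (2.52% of all genes). KIF20A, a kinesin that carries the chromosomal passenger complex to the midzone of the anaphase spindle, stood at 88.0 TPM with the scrambled siRNA, 23.7 TPM after siRNA1 and 5.45 TPM after siRNA2. This was the lowest fold of the 50 with either siRNA (-1.85 and -3.79, mean -2.82 ± 1.37 SD, n = 2), and 0.0485% of all genes had a lower fold with siRNA2. INCENP, the scaffold of the chromosomal passenger complex, measured 68.1, 27.9 and 13.9 TPM in the same order (mean log2 fold -1.73 ± 0.67 SD, n = 2). PLK1, the polo-like kinase that drives mitotic entry, spindle assembly and cytokinesis, measured 93.5, 43.2 and 26.9 TPM (mean -1.43 ± 0.47 SD, n = 2). CDC20, the activator of the anaphase-promoting complex, measured 315, 150 and 144 TPM, and its folds of -1.06 and -1.12 were the closest between siRNAs of these 4. The smallest of all these values, KIF20A with siRNA2, rested on about 99.2 estimated reads. With folds corrected for GC content, KIF20A alone was at least 2-fold lower with both siRNAs, at -1.89 and -3.55.

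Promoter sequences were searched for the elements through which mitotic genes are known to be switched. RefSeq start sites on GRCh38.p14 were matched for 43 of the 50 genes, with 55 start windows of 250 bases before to 50 bases after the start. The CHR core TTTGAA, searched on both strands, was found in 35 of these 55 windows (63.6%), against 10.4% of 13063 windows of the genes tested and 15.2% of all 35116. Its variant TTCGAA was in 3 windows (5.45% against 1.67% of the windows of the genes tested). Counted within 50 bases of the start, either form was in 30 of 55 windows (54.5%), against 3.62% of those of the genes tested. The CCAAT box, also on both strands, was in 38 of 55 windows (69.1% against 34.8%). A forkhead word, TGTTTAC, was in 1, that of CDK1 (1.82% against 2.71%). These matches describe letters and not bound sites.

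Windows are shown for the 3 genes with promoters that were lowest with both siRNAs, and for SMC4, the highest by mean fold, because they set the most and least reduced members side by side. Each runs 5′ to 3′ on the strand of its gene, plus for all 4, with matches in capitals, which are the CHR core, CCAAT and their reverse complements. Positions are those of a match's first letter counted from the start site. They lie at chr5:138178862-138179161 (KIF20A), chr11:62123761-62124060 (INCENP), chr16:23678639-23678938 (PLK1) and chr3:160399400-160399699 (SMC4, 1 of its 2 starts in RefSeq).
KIF20A: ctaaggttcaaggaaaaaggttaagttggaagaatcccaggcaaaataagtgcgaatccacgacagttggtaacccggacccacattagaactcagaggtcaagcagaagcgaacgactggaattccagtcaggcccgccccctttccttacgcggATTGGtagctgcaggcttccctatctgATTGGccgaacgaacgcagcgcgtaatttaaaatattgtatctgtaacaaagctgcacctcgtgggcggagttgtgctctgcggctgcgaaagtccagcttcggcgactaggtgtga
INCENP: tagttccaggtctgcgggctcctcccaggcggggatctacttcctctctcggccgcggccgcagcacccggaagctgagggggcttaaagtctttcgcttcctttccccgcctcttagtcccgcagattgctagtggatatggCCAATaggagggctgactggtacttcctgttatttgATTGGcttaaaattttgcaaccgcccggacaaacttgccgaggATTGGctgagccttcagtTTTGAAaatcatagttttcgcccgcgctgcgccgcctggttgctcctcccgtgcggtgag
PLK1: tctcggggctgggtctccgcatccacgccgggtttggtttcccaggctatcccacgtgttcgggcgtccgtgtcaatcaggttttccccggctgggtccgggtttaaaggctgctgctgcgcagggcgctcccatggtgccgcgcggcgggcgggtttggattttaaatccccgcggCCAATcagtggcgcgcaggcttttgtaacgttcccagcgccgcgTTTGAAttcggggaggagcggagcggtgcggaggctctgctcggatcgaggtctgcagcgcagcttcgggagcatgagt
SMC4: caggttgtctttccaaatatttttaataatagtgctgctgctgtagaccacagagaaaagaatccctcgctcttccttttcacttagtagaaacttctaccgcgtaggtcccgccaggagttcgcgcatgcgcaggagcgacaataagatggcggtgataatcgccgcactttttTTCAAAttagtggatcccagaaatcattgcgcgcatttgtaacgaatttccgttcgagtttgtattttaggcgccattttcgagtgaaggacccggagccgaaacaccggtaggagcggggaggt
In PLK1 a CCAAT box at -73 is followed by the CHR core at -29. INCENP has 3 CCAAT boxes, at -107, -71 and -28, and the CHR core at -10. KIF20A has CCAAT boxes at -94 and -67, and neither CHR form is in its window. SMC4 has the reverse complement of the core at -75 and no CCAAT box. Across the 43 genes, the 34 with either CHR form had medians of -0.03 and -0.98 with siRNA1 and siRNA2, and the 9 without it -0.37 and -0.98. The 33 with a CCAAT box had medians of -0.28 and -1.12, and the 10 without it 0.19 and -0.68.

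Kinases, cyclins and the passenger complex were lower with both siRNAs apart from CDC25B. Of 12 genes, 11 were below the control with both siRNAs (38.1% of all genes). At least 2-fold lower were 8 with siRNA2 (13.2% of all genes) and 2 with siRNA1 (6.0% of all genes). The group medians were -0.35 and -1.22. All 4 passenger complex genes were lower with both. AURKB, its kinase, measured 126, 87.5 and 44.9 TPM. CDCA8, which encodes the subunit borealin, measured 110, 56.5 and 40.9 TPM, and BIRC5, which encodes survivin, 19.9, 13.3 and 9.16 TPM, the lowest control level of the 50. AURKA, the centrosome and spindle pole kinase, stayed at 79.2% of the control with siRNA1 and 30.7% with siRNA2, at 220, 174 and 67.7 TPM.

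With siRNA2, CDK1 and its cyclins were nearer to the control than PLK1 and the phosphatase gene CDC25C were. CDK1 measured 185, 177 and 106 TPM, and its partner CCNB1 350, 271 and 198 TPM. Thus 95.6% and 77.6% of the control were left with siRNA1, and 57.2% and 56.6% with siRNA2. CCNB2 and CCNA2 were at 98.1% and 86.2% with siRNA1 and at 58.0% and 48.8% with siRNA2. The phosphatases that activate CDK1 differed from each other: CDC25C measured 32.3, 25.3 and 8.85 TPM, while CDC25B measured 259, 229 and 261 TPM. CDC25B was the 1 gene of the 50 that was not lower with siRNA2 than with siRNA1.

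The kinesins move along microtubules to build and divide the spindle. All 8 were below the control with siRNA2 (65.0% of all genes) and 4 with siRNA1 (47.9% of all genes). KIFC1, a minus-end motor that focuses spindle poles, measured 82.1, 53.8 and 26.6 TPM. KIF18B, which shortens astral microtubules, measured 39.1, 22.4 and 17.4 TPM, and KIF2C, which corrects faulty kinetochore attachments, 116, 87.3 and 58.4 TPM. These and KIF20A were lower with both. KIF14, a cytokinesis kinesin, stood at 44.0, 72.8 and 31.7 TPM, and it had the highest mean fold of the group, 0.13. KIF11, the motor that pushes spindle poles apart, KIF4A, which acts on condensed chromatin and the midzone, and KIF23, a subunit of the centralspindlin complex, had the same shape, with log2 folds of 0.42, 0.13 and 0.25 with siRNA1 and of -0.66, -1.10 and -0.16 with siRNA2. KIF4A has a near-identical copy, KIF4B, which was listed at no more than 0.201 TPM.

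Products of the kinetochore and checkpoint genes attach chromosomes and delay anaphase. These genes lay on both sides of the control with siRNA1 and were all below it with siRNA2 (65.0% of all genes). The 6 kinetochore genes had medians of 0.12 and -0.83, and the 5 checkpoint genes 0.05 and -0.87. CENPA, the centromeric histone, was the lowest of the kinetochore genes, at 63.8, 37.4 and 20.7 TPM. CENPE, a kinetochore motor, was the highest by mean fold, at 44.9 TPM in the control, 154% of it with siRNA1 and 61.3% with siRNA2. Of the Ndc80 complex, SPC25 measured 59.8, 47.2 and 24.9 TPM, whereas NDC80 and NUF2 were slightly above the control with siRNA1 (folds of 0.14 and 0.11) and below it with siRNA2 (-0.48 and -0.53). CENPF, a large G2 protein of the outer kinetochore, stood at 64.5, 82.1 and 32.5 TPM.

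BUB1, a checkpoint kinase, measured 102, 97.8 and 36.0 TPM, the lowest mean fold of the checkpoint group. BUB3, its partner, differed least, at 103, 106 and 81.5 TPM. MAD2L1, which encodes the checkpoint effector MAD2, was lower with both at 59.1, 46.4 and 29.2 TPM. BUB1B and TTK, the kinases BUBR1 and MPS1, were higher with siRNA1 and lower with siRNA2, BUB1B at 44.0, 52.0 and 23.6 TPM and TTK at 60.3, 73.1 and 36.2 TPM.

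Genes of anaphase onset were lower with both siRNAs apart from PTTG1. UBE2C, the ubiquitin-conjugating enzyme of the anaphase-promoting complex, measured 429, 258 and 226 TPM. ESPL1, which encodes separase, the protease that cuts cohesin, measured 31.3, 20.4 and 11.3 TPM. PTTG1, which encodes the separase inhibitor securin, measured 95.9 TPM with the scrambled siRNA, and the siRNA1 and siRNA2 values were 104% and 58.3% of that. CDC20 and UBE2C were nearly equal between the siRNAs, and the 4 genes had the smallest median difference of siRNA2 from siRNA1 of the 8 groups, -0.50.

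Spindle and cytokinesis genes were all below the control with siRNA2 (65.0% of all genes), and 2 of 8 with siRNA1 (47.9%). HMMR, a spindle pole protein also known as a hyaluronan receptor, measured 70.2, 81.5 and 10.3 TPM. NUSAP1, which bundles microtubules at chromosomes, measured 159, 131 and 27.8 TPM, the lowest mean fold of its group at -1.38. With KIF20A, INCENP and NCAPH these were the 5 genes at least 4-fold lower with siRNA2 (1.75% of all genes). The other members were less reduced. DLGAP5, a spindle microtubule protein, was at 39.7% of the control with siRNA2, ASPM, of the spindle poles, at 55.3%, and PRC1, the midzone bundler, at 58.8%. TPX2, the activator of AURKA, measured 326, 359 and 211 TPM. ANLN, the contractile ring scaffold, measured 105, 106 and 69.3 TPM. ECT2, which activates RhoA for the cleavage furrow, measured 168, 238 and 150 TPM, the highest mean fold of the group.

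Condensin and topoisomerase genes, which shape mitotic chromosomes, split by subunit. NCAPH, the kleisin of condensin I, measured 68.2, 55.6 and 16.1 TPM. The subunit gene NCAPG and the ATPase genes SMC2 and SMC4, the latter 2 shared by condensin I and II, were above the control with siRNA1, at 138%, 127% and 161%. With siRNA2 they were at 62.0%, 58.9% and 103%, and SMC4 measured 83.7, 135 and 86.1 TPM. TOP2A, the topoisomerase that untangles sister DNA, measured 286, 281 and 123 TPM. Over 25% of the exon bases of SMC4, NCAPG, NUSAP1 and PRC1 lie in exons of another annotated gene, so reads in the shared part could not be told from those of the neighbour.

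FOXM1 and MYBL2, the factors that switch on this programme in G2, were themselves lower with both. MYBL2, which encodes B-MYB, was the most abundant of the 50 in the control and measured 496, 301 and 251 TPM. FOXM1 measured 89.3, 73.9 and 28.0 TPM. Their order differed between reagents: MYBL2 had the lower fold with siRNA1 (-0.72 against -0.27) and FOXM1 with siRNA2 (-1.64 against -0.98). FOXM1 at siRNA1 lay at 0.02 with the GC trend removed.

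The siRNAs were then compared with each other, which does not involve the control. Of the 50 genes, 49 were lower with siRNA2 than with siRNA1 (64.3% of all genes), 19 of them at least 2-fold (12.8% of all genes), and the median difference was -0.83 beside -0.25 over all genes. HMMR had the largest gap, -2.87. The direct comparison is 1 library against 1, with no replicate check. FOXP4 was the lower of its 2 knockdown values with siRNA2, and the mitochondrial share was lowest there too. With mitochondrially encoded genes left out, the medians of the 50 were -0.06 (siRNA1) and -1.04 (siRNA2), beside 0.08 and -0.31 over all genes. The part of FOXP4 and of the mitochondrial share in the result was not tested otherwise.

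**Figure D2:**
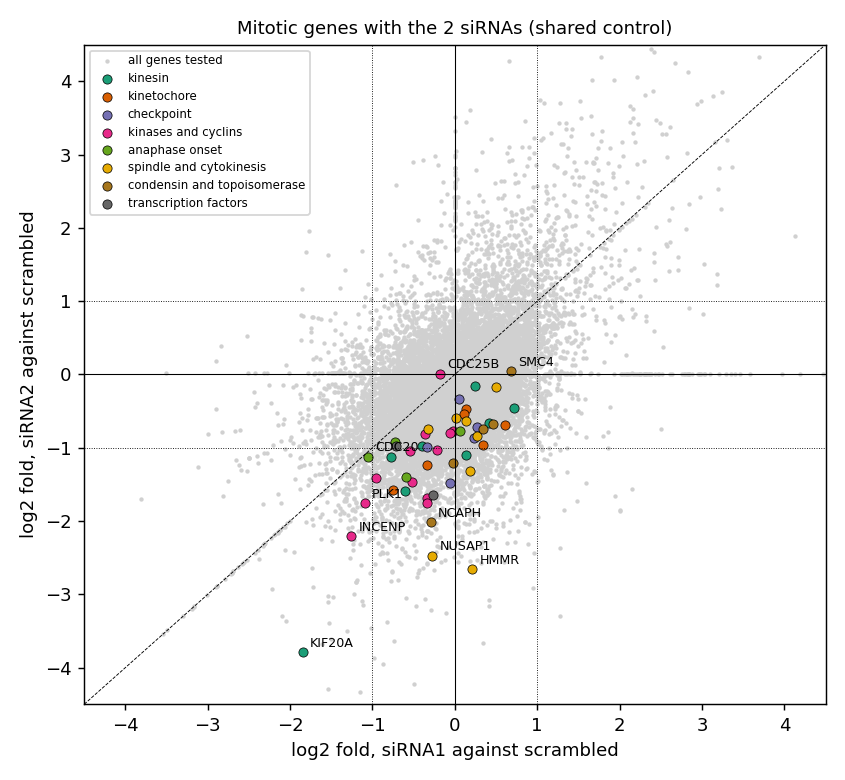
Log2 folds against the scrambled library with siRNA1 (horizontal) and siRNA2 (vertical) for the 50 mitotic genes, coloured by function, over all genes tested in grey, with dotted lines at 2-fold, a dashed line of equal folds and axes ended at 4.5. Both folds share the control, and 49 of the 50 coloured points lie below the dashed line.

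Base composition moved with the split between genes. Across the 50 genes, which are not replicates and share these libraries, GC content had a Spearman correlation of -0.80 with the siRNA1 fold and -0.43 with the siRNA2 fold. The 25 GC-poorer genes (35.3% to 43.2% GC, among them CENPE, HMMR, KIF14, SMC4 and ECT2) had a median siRNA1 fold of 0.19 with 8 below the control. The 25 GC-richer genes (43.2% to 60.5%, among them MYBL2, INCENP, CDC20 and PLK1) had a median of -0.52 with 21 below. With siRNA2 the medians were -0.75 and -1.12, and 24 of 25 were below the control on either side. Of all genes tested, 47.9% were below the control with siRNA1 and 65.0% with siRNA2. Over the 12335 genes with a GC value the siRNA1 correlation was also negative, at -0.61.

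**Figure D3:**
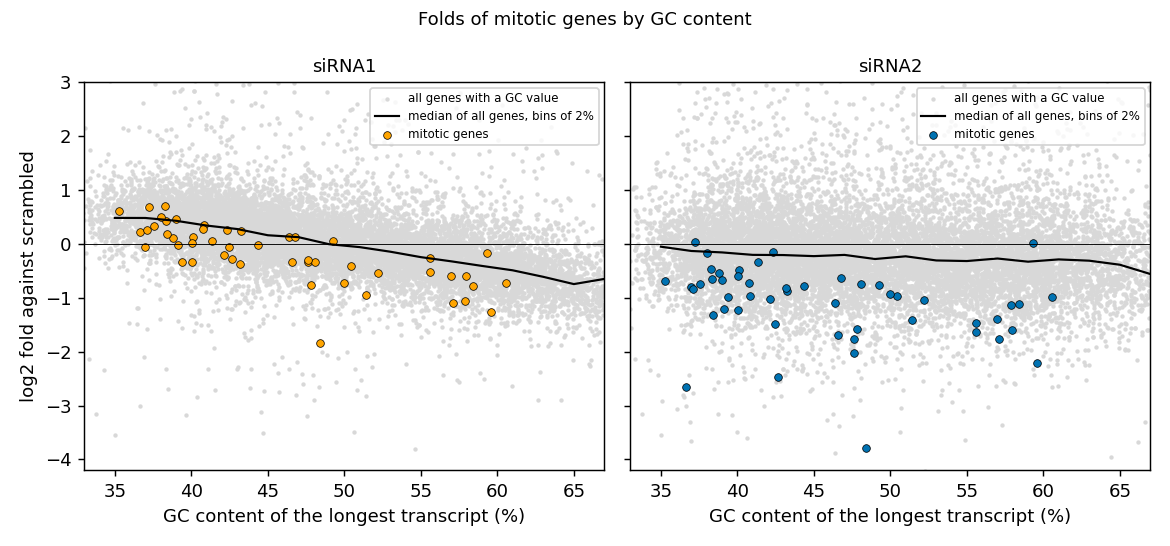
Log2 fold against the scrambled library by GC content of the longest transcript (%), with siRNA1 on the left and siRNA2 on the right, for the 50 mitotic genes (coloured) and all genes with a GC value (grey), with the black line the median of all genes in bins of 2%. With siRNA1 the mitotic genes follow the slope of the line and most lie under it, and with siRNA2 nearly all lie under it.

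That slope was removed by a lowess curve fitted on nuclear genes averaging 10 TPM or more. Most of the mitotic genes lay below the curve with either siRNA. Below it were 41 of 50 with siRNA1 (49.6% of all genes), 47 with siRNA2 (50.9%) and 40 with both (34.3%). The medians became -0.31 and -0.75, beside 0.00 and -0.01 over all genes with a GC value. Checkpoint genes then lay below it 5 of 5 with both, kinetochore genes 5 of 6, and kinases and cyclins 11 of 12, with CDC25B above it at 0.28 and 0.31. Spindle and cytokinesis genes did so in 6 of 8, against 2 below the control with both, and kinesins in 6 of 8, against 4. Anaphase onset genes did so in 3 of 4, condensin and topoisomerase genes in 3 of 5 and transcription factors in 1 of 2. Single genes moved with this step: KIF14 went from 0.71 to 0.24 with siRNA1, CENPE from 0.61 to 0.07, and CCNB1 from -0.37 to -0.65. On this scale 45 of 50 were lower with siRNA2 than with siRNA1 (50.9% of all genes), and KIF23, BUB3, CCNB1, CDC25B and UBE2C were not.

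A further 86 mitotic genes were read beside them: kinesin, kinetochore, checkpoint, kinase and cyclin, anaphase onset, spindle and cytokinesis, condensin and cohesin genes. With siRNA2, 82 of 86 were below the control (65.0% of all genes) and 25 were at least 2-fold lower (13.2% of all genes). With siRNA1, 46 were below the control (47.9% of all genes), near the background, and 2 were at least 2-fold lower (6.0% of all genes). Their medians were -0.02 and -0.78. With the GC trend removed, 62 of the 82 with a GC value were below the curve with siRNA1 (49.6% of all genes). On that scale 73 were below it with siRNA2 (50.9%) and 59 with both (34.3%), with medians of -0.20 and -0.58. Limma called 0 of the 86 (2 had an unadjusted p under 0.05, against 2.97% of all genes). GTSE1, a G2 and S phase protein that restrains p53, measured 58.2, 26.2 and 13.0 TPM. It was the 1 gene of the 86 at least 2-fold lower with both (2.38% of all genes). WEE1, the kinase that holds CDK1 inactive, stood out on the other side, at 27.8, 75.9 and 184 TPM. Its folds were 1.42 and 2.69. Limma limited to 10 TPM called it, but took every variance from a common trend there. How far the siRNAs differed at each gene was ignored.

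The regulators that act on mitotic promoters were not lower as a list with siRNA1, and with siRNA2 their median lay near that of all genes. Of 14 genes of the DREAM complex, the MuvB core and linked E2F and CDK inhibitor genes, 13 passed the filter on low values, and LIN37 was under 1 TPM. Their medians were 0.35 and -0.19. Below the control were 3 of 13 with siRNA1 (47.9% of all genes) and 9 with siRNA2 (65.0% of all genes). With the GC trend removed the medians were 0.11 and 0.00. Below the curve were then 5 of 13 with siRNA1 (49.6% of all genes) and 6 with siRNA2 (50.9%). Limma called 0 of the 13 (0 at an unadjusted p under 0.05). E2F7, an atypical E2F that represses cell cycle genes, measured 14.8, 32.4 and 204 TPM, with folds of 1.08 and 3.70. In limma limited to 10 TPM E2F7 was called (adjusted p = 0.00468), as were 1.02% of 9129 genes in either direction. That fit took every variance from a common trend and ignored how far the siRNAs differed at each gene. Its closest relative E2F8, picked out after its values were seen, went the other way with siRNA2, at 57.4, 60.7 and 9.54 TPM. CDKN1A, the p21 inhibitor through which p53 brings DREAM to its targets, measured 325, 414 and 323 TPM, and LIN9, of the MuvB core, 26.2, 36.9 and 14.2 TPM.

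Genes of G1/S and DNA replication, the earlier wave of the cell cycle, were also mostly below the control. Of 44, 33 were below the control with siRNA1 (47.9% of all genes) and 42 with siRNA2 (65.0% of all genes), with medians of -0.39 and -0.96. Limma called 0, and 4 had an unadjusted p under 0.05 (2.97% of all genes). MCM5, MCM6 and POLD1, 3 of the 44, were at least 2-fold lower with both (2.38% of all genes). On the GC-corrected scale the G1/S medians were -0.37 and -0.70, near those of the 50 mitotic genes. No test of the difference between the lists was made.

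**Figure D4:**
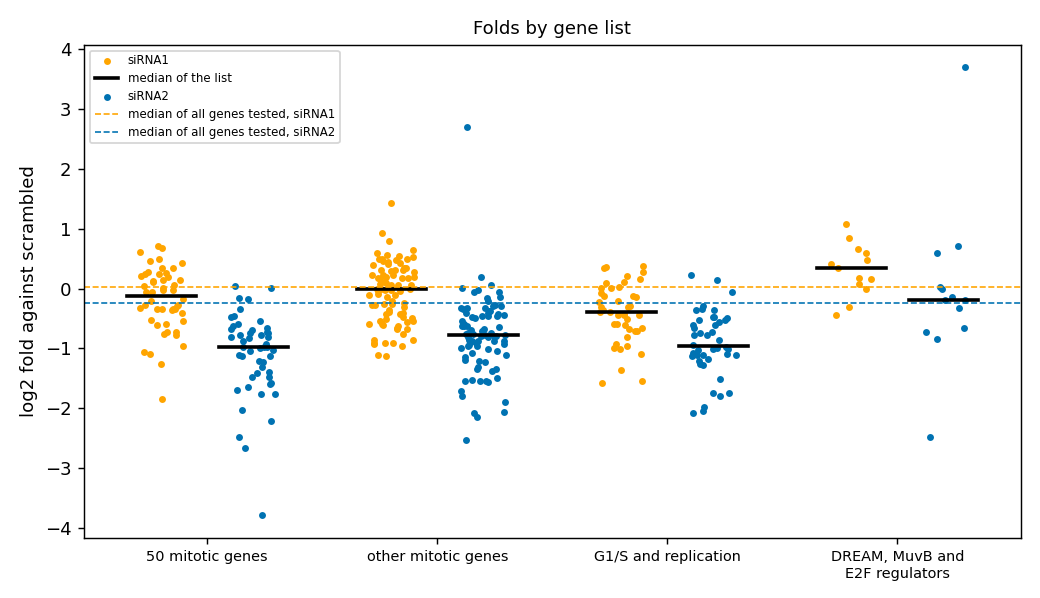
Log2 fold against the scrambled library for each gene of 4 lists (points, spread sideways for sight only), with siRNA1 in orange and siRNA2 in blue, the list median as a black bar and the median of all genes tested as dashed lines. The siRNA2 medians of the 50 mitotic, other mitotic and G1/S genes lie at -0.97, -0.78 and -0.96, under the dashed line at -0.24, and E2F7 is the highest blue point among the regulators.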

How the data were processed

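Poly(A) RNA of 3 libraries was measured. The authors deposited TPM, 1 column per library, with gene symbols. Per the submitters' processing notes the build was GRCh38. What quantified the reads, and on which annotation, is not given in the sources used here. Because TPM has a fixed total, abundant transcripts shift all others. Depth came from the step of low TPM times exon length (GENCODE 29): 93.2%, 93.3% and 93.4% of such values lay within 0.1 of whole reads, against 20.0% by chance.

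Values were compared as log2(TPM + 1), which understates folds of low genes, for genes averaging 1 TPM or more. The test was limma 3.58.1 (R 4.3.3, trend on mean level, threshold 0.05). The lone control was assumed to vary like the siRNA libraries. GC content was that of the longest GENCODE 29 transcript, and its trend was removed by lowess (statsmodels 0.14.6, span 0.3). The curve was fitted on nuclear genes averaging 10 TPM or more. Code was tested on simulated data. A cut of 2-fold in TPM + 1 described size.

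The genes and lists were chosen with earlier results of these data known. Full values are given for genes at least 2-fold from the control with both siRNAs, the lowest and highest of each functional group, and PLK1, AURKA, AURKB, CCNB1, CDK1, CDC20, TOP2A, FOXM1 and MYBL2, with further members added for their role. Of other lists, those at least 2-fold from the control with both are named, and E2F8, CDKN1A and LIN9 were added outside this rule. Symbols absent from the table were matched through RefSeq synonyms. Markers were 8 epithelial, 4 immune, 4 fibroblast and 3 endothelial genes.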

Additional observations from a re-analysis of the deposited data

How the results depend on the processing

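Results were recomputed with pseudocounts of 0.1 and 5, no filter or a mean of at least 10 TPM, median-of-ratios or quantile scaling, mitochondrially encoded genes left out, protein-coding genes alone, and the GC trend removed. Under these the median fold of the 50 genes kept its sign, from -0.31 to -0.06 with siRNA1 and from -1.04 to -0.70 with siRNA2. Median-of-ratios scaling moved the siRNA2 median of all genes from -0.24 to 0.01, and the mitotic median relative to it was -0.73 before and -0.70 after. The 4 genes at least 2-fold lower with both siRNAs became 1 with the GC trend removed, as did the 4 with siRNA1, and the 19 at least 2-fold lower with siRNA2 than with siRNA1 became 9. That last count was 11 under median-of-ratios scaling. This count, the count lower with siRNA2 than with siRNA1 and the count below the control with both were chosen after seeing the data. Limma called 1 of 50, KIF20A, at 10 TPM (adjusted p = 0.00169) and 1, again KIF20A, with protein-coding genes alone (adjusted p = 0.00247), where both fits took every variance from a common trend. It called 0 in the other settings. Mean folds near 0 changed sign: CDC25B to 0.30 with the GC trend removed and 0.052 with median-of-ratios, CENPE to 0.093 with median-of-ratios and 0.065 with quantile scaling, ECT2 to -0.018 and KIF14 to -0.053 with the GC trend removed. The causes were not tested. Leaving out 1 siRNA gives the fold of the other, and the sign of the fold differs between the siRNAs in 21 of the 50 genes. Among the genes named by rule, for which this was run, the sign turned against the mean for BUB3 (-0.33 to 0.0495), CDC25B (-0.18 to 0.0119), CENPE (-0.69 to 0.61), ECT2 (-0.17 to 0.50), KIF14 (-0.46 to 0.71) and PTTG1 (-0.77 to 0.0595). No paired analysis was possible because the control is 1 library and no label ties it to either siRNA.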
